A study of Rattus norvegicus with 4 samples.

Results

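The genes described here are the muscle ankyrin repeat protein family, Ankrd1, Ankrd2 and Ankrd23, and 7 genes of the Hippo pathway, Yap1, Wwtr1, Tead1, Amotl2, Lats1, Lats2 and Vgll4. For each gene, the annotated open reading frame (ORF) with the most footprints summed over all libraries was taken. Of the 10 genes named, 9 had such an ORF and were found among 13694 genes with an annotated ORF, and Ankrd2 had no annotated row and was not analysed here. The cells were ventricular cardiomyocytes of Sprague-Dawley rats taken at postnatal day 2, preplated to remove other cells and grown with serum. One group of 2 libraries came from cultures given phenylephrine (PE, an α1-adrenergic agonist and classical trigger of cardiomyocyte growth) at a dose of 20 µM and an exposure of 24 h, and the other group of 2 libraries came from untreated control cultures. The readout was ribosome profiling, in which RNA fragments covered by ribosomes are sequenced and counted on ORFs, so a value depends on both mRNA amount and translation.

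Hippo signalling is a kinase cascade that restrains tissue growth. Its last kinases, LATS1 and LATS2, phosphorylate the coactivators YAP1 and TAZ (the product of Wwtr1), which are then held in the cytoplasm or degraded, while unphosphorylated YAP1 and TAZ enter the nucleus and drive transcription through TEAD factors. VGLL4 competes for TEAD, and angiomotin-like proteins bind YAP1 at junctions and actin. In the heart the pathway limits cardiomyocyte proliferation, and Ankrd1 (cardiac ankyrin repeat protein), which sits at the sarcomere on titin and also enters the nucleus, is widely used as a YAP target gene and as a marker of cardiac stress.

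The libraries held 12117629 and 12537740 footprints in PE and 11446574 and 13827599 in control. Counts of the 2 libraries of a group were further apart than counting error gives (chi-square over its degrees of freedom 1.60 in PE and 1.62 in control), so each library was used as a sample. Whether a group's libraries are from different cultures is not in the labels, and the p-values then reflect only the spread between these libraries, which may be technical. Of 11 cardiomyocyte markers 4 were higher and 7 lower by the test described below for the members. Over all ORFs tested, 21.4% were higher and 21.3% lower. These markers summed to 80025 and 80692 CPM (counts per 1000000 footprints after scaling by TMM factors) in PE and 70430 and 70514 CPM in control. As counted, that direction rested on Nppa, the atrial natriuretic peptide, at 17752 and 17870 CPM in PE and 4973 and 4825 CPM in control. Without it, an omission chosen after seeing the data, the sum was 62273 and 62822 CPM in PE and 65457 and 65689 CPM in control. Myh6 and Myh7, both lower in PE, had 0.190 and 0.664 counts per P-site (peptidyl-site position of a footprint). The median tested ORF had 1.17, so the sum and its direction depend on the counting. Markers of fibroblasts summed to 31855 and 32348 CPM in PE, against 41795 and 42076 CPM in control. This fibroblast signal was present in both groups and its sum was lower in PE, while its markers went both ways. Of 11 tested, 6 were lower and 3 higher, against 21.3% lower and 21.4% higher over all ORFs tested. Fn1, among the higher, had 8172 and 8338 CPM in PE and 4776 and 4793 CPM in control. Without Postn, an omission chosen after seeing the data, the sum was 25270 and 25745 CPM in PE and 28119 and 28325 CPM in control. Col3a1, still in that sum, had 2335 and 2362 CPM in PE and 7664 and 7806 CPM in control. Its fall was larger than the gap left between the groups, so the direction of the sum rests on Postn and Col3a1. Col1a2 had 158850 P-sites but 0 and 2 counts in PE and 0 and 0 in control, so the sum holds almost none of it. In bulk samples like these, fewer cells of a type and less RNA per cell cannot be told apart.

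PE was followed by a 1.42-fold increase of footprints on Ankrd1, which was among the ORFs with the highest footprint density in both groups, and by a 1.73-fold decrease on Vgll4. Amotl2 and Lats2 rose by small amounts, 1.09-fold and 1.18-fold. Yap1, Wwtr1, Tead1 and Lats1 did not pass the test. The comparison asked whether ribosome occupancy differed after PE, and the test was the quasi-likelihood test of edgeR, with p-values adjusted by Benjamini-Hochberg over 12609 ORFs and called under 0.05. Of the 8 members tested, 3 were higher and 1 was lower, while over all ORFs tested 21.4% were higher and 21.3% were lower. The share of members called, 4 of 8, was therefore close to the 42.7% called over all ORFs. The median log2 fold change of the members was 0.14, and that of all ORFs was 0.00038; the median size of the change without regard to sign was 0.17 for the members and 0.26 for all ORFs.

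**Figure D1:**
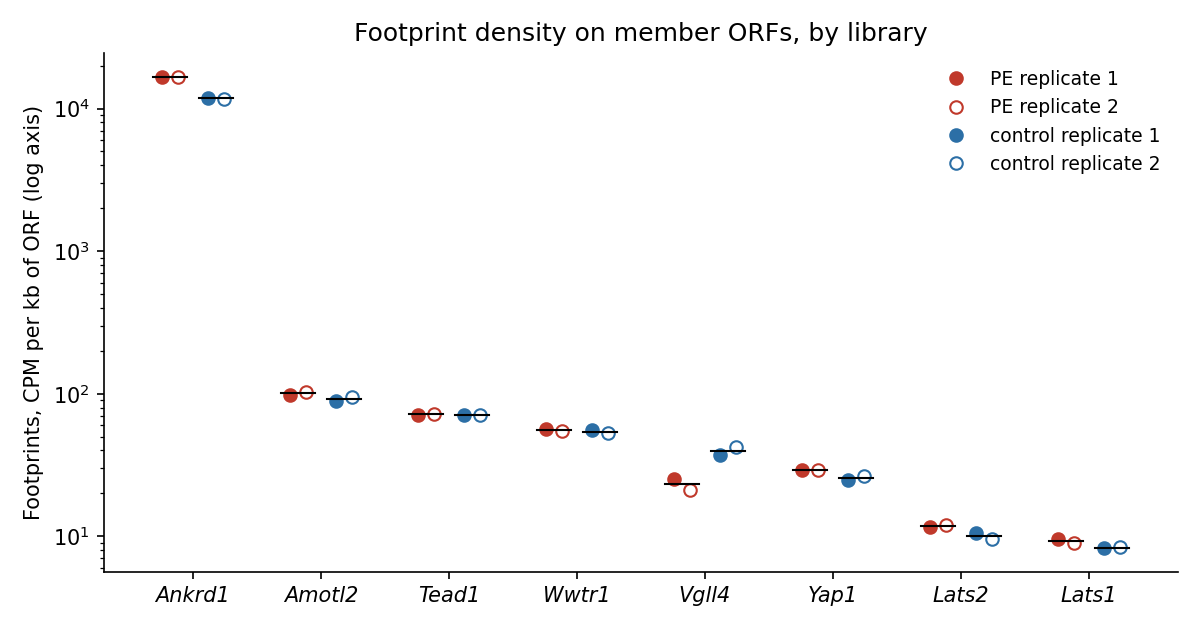
Footprint density of the 8 tested members, in CPM per kb of ORF on a log axis, with 1 point per library (red PE, blue control) and a bar at each group mean. Ankrd1 lies near 16711 in PE and 11769 in control, and Amotl2, which comes next, at 100.4 in PE and 91.7 in control.

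Promoter windows were examined for the letters bound by TEAD factors, because these factors carry YAP1 and TAZ to DNA. Windows of 300 bases, 250 before and 50 after a gene's start, were taken from RefSeq (build GRCr8), and 7 of the 10 genes matched by symbol; Ankrd1, Tead1 and Lats2 had no entry. The TEAD motif was searched as CATTCC or, on the other strand, GGAATG. It was present in 14.2% of all 33469 windows, and in 4 of the 9 windows of the member genes. Shown here are the windows of the 2 called genes that held it, Amotl2 (chr8:112182376-112182675, plus strand) and the middle of 3 Vgll4 windows (chr4:149710165-149710464, minus strand), each 5′ to 3′ along the gene, with the motif in capitals.
Amotl2: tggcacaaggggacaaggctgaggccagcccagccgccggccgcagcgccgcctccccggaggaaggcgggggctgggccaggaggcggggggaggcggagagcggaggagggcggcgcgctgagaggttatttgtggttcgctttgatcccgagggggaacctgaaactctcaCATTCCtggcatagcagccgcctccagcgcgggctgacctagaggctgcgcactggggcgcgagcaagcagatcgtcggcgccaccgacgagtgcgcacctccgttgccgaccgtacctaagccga
Vgll4: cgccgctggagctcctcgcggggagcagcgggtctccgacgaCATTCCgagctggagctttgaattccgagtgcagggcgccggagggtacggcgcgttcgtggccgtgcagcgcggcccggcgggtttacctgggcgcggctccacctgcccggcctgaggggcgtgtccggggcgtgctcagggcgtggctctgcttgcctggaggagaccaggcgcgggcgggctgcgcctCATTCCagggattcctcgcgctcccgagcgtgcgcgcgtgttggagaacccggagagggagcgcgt
In Amotl2 the motif began 76 bases before the start. In Vgll4 it occurred at 2 places, 208 and 16 bases before the start. Single matches were found in Yap1, 116 bases before the start, and in Ankrd23, 102 bases before it. The windows of Ankrd2, Wwtr1 and Lats1 and the other 2 windows of Vgll4 did not hold these letters. A match describes the sequence and is not evidence of binding.

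Ankrd1 (Rnor_6.0 chromosome 1, 254727722 to 254735491, minus strand, introns included; 319 residues) held nearly all footprints of the 2 family members analysed. It had 16043 and 15942 CPM in the PE libraries, against 11294 and 11232 CPM in the control libraries. Both PE libraries lay well above both control libraries, and libraries of a group were close together. The log2 fold change was 0.51 ± 0.01 (SE), at an edgeR quasi-likelihood adjusted p = 4.4e-27. The share of all footprints that fell on this 1 ORF was 1.58% and 1.56% in PE and 1.15% and 1.14% in control. The 95% Wilson intervals were 1.577% to 1.591% and 1.558% to 1.572% in PE and 1.139% to 1.152% and 1.133% to 1.144% in control, and they cover counting error only.

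By CPM per kb of ORF, Ankrd1 held rank 3 among genes with an annotated ORF in both PE libraries and rank 2 in both control libraries. Its 563606 P-sites (peptidyl-site positions of footprints, pooled over libraries) were 85.5% in frame 0, where all ORFs together had 84.7%.

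Ankrd23, which encodes the family member also called DARP and found at the sarcomere, was at the edge of detection (chromosome 9, 43112340 to 43116350). It had 2 and 9 counts in PE and 0 and 1 in control, and 10 P-sites in all. It was removed by the filter on low counts. Without that filter its edgeR quasi-likelihood adjusted p was 0.069, and a count of 0 in control replicate 1 allows up to 0.258 CPM (3 counts). The proteins of Ankrd1 and Ankrd23 both held TPLH, letters typical of ankyrin repeats, at residues 254 and 220, as did the proteins of 150 of the 13694 genes. Of the 676694 footprints on Ankrd1 and Ankrd23 together, 12 fell on Ankrd23, a share of 0.00177% (exact 95% interval 0.00092% to 0.0031%, counting error only).

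The patterns nearest to that of Ankrd1 were sought among 132 other annotated ORFs with a mean of at least 1000 CPM, by the root mean square difference of log2 CPM centred over the 4 libraries. The nearest was Actc1, the cardiac α-actin of the thin filament, at a distance of 0.0088. Actc1 had 34182 and 34540 CPM in PE and 24200 and 24176 CPM in control. Next came the chemokine Ccl2 at 0.014, the chitinase-like protein Chi3l1 at 0.015, the transferrin receptor Tfrc at 0.025 and the ventricular myosin light chain Myl3 at 0.033. With 4 libraries in 2 groups, likeness here means little more than a similar log2 fold change, from 0.44 for Myl3 to 0.54 for Tfrc.

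Yap1 and Wwtr1 encode the coactivators. The Yap1 ORF (chromosome 8, 6135542 to 6203579, 469 residues) had 41.0 and 41.1 CPM in PE, against 34.7 and 37.5 CPM in control. PE libraries were above control libraries in this gene, but the log2 fold change of 0.18 ± 0.08 (SE) did not pass, at an edgeR quasi-likelihood adjusted p = 0.066. The groups did not overlap in 6 of the 8 tested members, 5 with PE above control and 1 with PE below, while over all ORFs tested this held for 68.6%, with PE above in 34.4% and below in 34.3%.

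The Yap1 count rests on a part of its P-sites. A second annotated Yap1 ORF of 366 residues shares the first 310 residues, starts at the same base and then differs to its end. It carried 10 and 11 counts in PE and 10 and 7 in control, although the deposited annotation gives it 2959 P-sites. The longer ORF had 0.428 counts per P-site and the shorter one 0.0128, where the median tested ORF had 1.17, and how reads shared by the 2 ORFs were counted is not stated in the processing notes or file headers. With both ORFs summed, the log2 fold change was 0.19 (edgeR quasi-likelihood adjusted p = 0.057).

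Wwtr1 (chromosome 2, 147577338 to 147692541, 395 residues) had 67.1 and 65.3 CPM in PE and 65.6 and 62.8 CPM in control. The groups overlapped, and the log2 fold change was 0.05 ± 0.06 (SE, edgeR quasi-likelihood adjusted p = 0.59). Per kb of ORF, the counted Yap1 density was 34.0% and 34.6% of the sum of Yap1 and Wwtr1 in PE and 30.8% and 33.5% in control. The Yap1 value in this share rests on a part of its P-sites, as above.

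The deposited protein sequences of the members were searched for short motifs known from this pathway. The motif HxRxxS, which LATS kinases phosphorylate, occurred at 5 places in Yap1, beginning at residues 41, 89, 107, 141 and 358, and at 4 in Wwtr1, beginning at residues 61, 84, 112 and 301. Amotl2, Lats1 and Lats2 held it at 1 place each, and Ankrd1, Ankrd23, Tead1 and Vgll4 did not hold it. One such motif or more was present in 7.76% of the proteins of 13694 genes. Both proteins ended in TWL, the PDZ-binding tail of these coactivators, which 2 of the 13694 proteins had. The shorter Yap1 ORF did not have this ending.

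Tead1 encodes the TEAD factor named among the members, a DNA-binding partner of YAP1 and TAZ that is long known in cardiac gene control. It had 92.5 and 95.0 CPM in PE and 93.3 and 93.4 CPM in control (chromosome 1, 177569716 to 177706863). The control values lay between the 2 PE values. The log2 fold change was 0.01 ± 0.05 (SE), at an edgeR quasi-likelihood adjusted p = 0.94. Per kb of ORF, Tead1 averaged 71.7 ± 1.38 CPM in PE and 71.4 ± 0.0438 CPM in control, well above its paralogs (SD, n = 2 each here and for these). Tead3 averaged 12.5 ± 1.21 CPM per kb in PE and 10.6 ± 0.859 in control. Tead2 averaged 2.09 ± 0.744 CPM per kb in PE and 1.90 ± 0.418 in control, and Tead4 1.104 ± 0.0758 in PE and 1.24 ± 0.164 in control. None of the 3 paralogs passed the test.

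**Figure D2:**
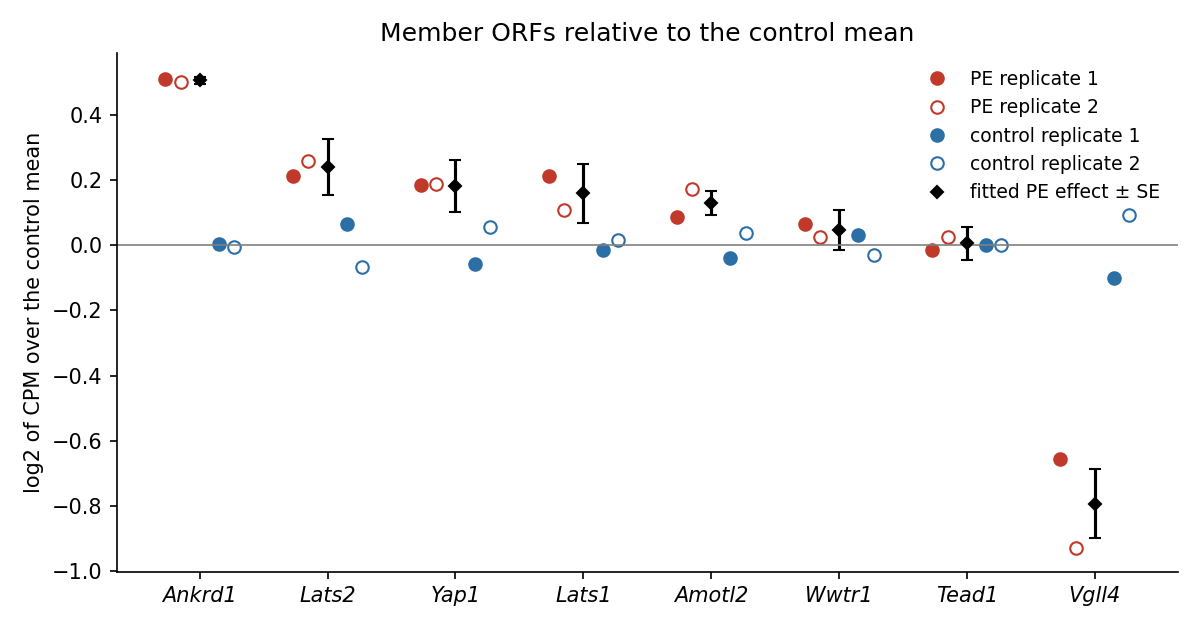
Each member's CPM in each library relative to the control mean, on a log2 scale (points), with the fitted PE effect and its SE (diamonds). The fitted effect is 0.51 for Ankrd1 and -0.79 for Vgll4, and for the other tested members it lies between 0.01 for Tead1 and 0.24 for Lats2.

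Vgll4, which encodes a TEAD cofactor that competes with YAP1 and restrains its output, changed most among the 8 members tested. It had 21.8 and 18.0 CPM in PE, against 32.0 and 36.7 CPM in control. Both PE libraries were below both control libraries. The log2 fold change was -0.79 ± 0.10 (SE), at an edgeR quasi-likelihood adjusted p = 1.6e-07. The ORF (chromosome 4, 146779345 to 146839047) encodes 287 residues and held the motif VxxHF, the core of the TEAD-binding repeat of vestigial-like proteins, at residues 206 and 234. In the authors' deposited DESeq2 table the adjusted p of Vgll4 was 5.7e-06. For the 8 members tested, the log2 fold changes and SEs there equalled those of DESeq2 as run here. The deposited values are therefore not a separate result. The motif VxxHF was present in 3.70% of the proteins of 13694 genes.

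The same Vgll4 transcript carries an upstream ORF of 27 residues (146839296 to 146839379). It had 11 and 19 counts in PE and 21 and 39 in control. The log2 fold change was -0.91 ± 0.40 (SE), in the direction of the coding ORF, and did not pass, at an edgeR quasi-likelihood adjusted p = 0.066. Vgll3, a vestigial-like paralog, averaged 9.40 ± 0.187 CPM in PE and 8.89 ± 0.0310 CPM in control (SD, n = 2 each) and did not pass.

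Amotl2, an angiomotin-like scaffold that binds YAP1 and is itself a YAP target gene, had the highest footprint density per kb of the Hippo members. It had 232.4 and 247.0 CPM in PE and 213.1 and 224.9 CPM in control (chromosome 8, 111210435 to 111224543, 796 residues). The PE libraries were above the control libraries by a narrow gap. The log2 fold change was 0.13 ± 0.04 (SE), at an edgeR quasi-likelihood adjusted p = 0.0047. The call was lost with DESeq2 (adjusted p = 0.059) and with library totals alone (adjusted p = 0.051). It was also lost in edgeR's test when PE replicate 2 was left out (log2 fold change 0.085, adjusted p = 0.10) or control replicate 1 (0.088, adjusted p = 0.094). In the authors' deposited table its adjusted p was 0.062.

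Its paralogs gave other values. Amotl1 averaged 38.9 ± 0.602 CPM in PE and 39.1 ± 5.12 CPM in control (SD, n = 2 each) and did not pass. Amot fell to 5.47 ± 0.882 CPM in PE, against 8.08 ± 0.633 CPM in control, a log2 fold change of -0.56 (edgeR quasi-likelihood adjusted p = 0.019). This call was lost with DESeq2 (adjusted p = 0.17) and when the length trend was removed (-0.43, adjusted p = 0.074). It was also lost when PE replicate 1 (-0.40, adjusted p = 0.19) or control replicate 1 (-0.48, adjusted p = 0.088) was left out. The Amotl2 protein held 1 PPxY motif, at residue 233, of the kind that WW domains of YAP1 and TAZ bind.

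The kinases had the lowest footprint density per kb of the tested members. Lats2 (chromosome 15, 37945276 to 37983720, 1042 residues) had 36.4 and 37.5 CPM in PE and 32.8 and 30.0 CPM in control. PE libraries were above control libraries, and the log2 fold change of 0.24 ± 0.09 (SE) passed at an edgeR quasi-likelihood adjusted p = 0.024. The call was lost with DESeq2 (adjusted p = 0.19), with library totals alone (adjusted p = 0.064), and in edgeR's test when PE replicate 2 was left out (log2 fold change 0.22, adjusted p = 0.12) or control replicate 2 (0.17, adjusted p = 0.24). In the authors' deposited table its adjusted p was 0.20.

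Lats1 (chromosome 1, 1795794 to 1813970, 1130 residues) had 32.7 and 30.4 CPM in PE and 27.9 and 28.5 CPM in control. The groups did not overlap, but the log2 fold change of 0.16 ± 0.09 (SE) did not pass, at an edgeR quasi-likelihood adjusted p = 0.17. After removal of the trend of fold changes with ORF length it was 0.27 and passed (adjusted p = 0.016), and these are long ORFs of 3390 and 3126 nt for Lats1 and Lats2. Per kb, Lats1 made up 45.3% and 42.7% of the sum of both kinases in PE and 44.0% and 46.8% in control, and these shares overlapped. That the change of one kinase passed and that of the other did not does not show that they differed, and the difference was not tested.

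Lats2 also carries an upstream ORF of 32 residues, with 8 and 22 counts in PE and 14 and 21 in control, which overlapped and did not pass (edgeR quasi-likelihood adjusted p = 0.84). The PPxY motif occurred at residues 373 and 556 of Lats1 and at residue 472 of Lats2, and it was present in 6.65% of the proteins of 13694 genes.

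Ordered by density per kb over all libraries, Ankrd1 stood first, followed by Amotl2, Tead1, Wwtr1, Vgll4, Yap1, Lats2, Lats1 and Ankrd23. Ankrd1 was 148-fold denser than Amotl2, which came next. In PE the order of Vgll4 and Yap1 was the other way round: Vgll4 averaged 23.1 ± 3.10 CPM per kb and Yap1 29.2 ± 0.0389 in PE, while in control Vgll4 averaged 39.9 ± 3.79 and Yap1 25.7 ± 1.41 (SD, n = 2 each). Within a group, no library of one gene overlapped those of its neighbour in the order. Over both groups Vgll4 (21.0 to 42.6 CPM per kb) overlapped Yap1 (24.7 to 29.2), and Lats2 (9.58 to 12.0) overlapped Lats1 (8.23 to 9.64). The place of Yap1 rests on its low share of counted P-sites, 0.428 counts per P-site against 1.18 for both Vgll4 and Wwtr1. By P-sites per kb, which are pooled over libraries, Yap1 had 3202, above Tead1 with 2946, Wwtr1 with 2323 and Vgll4 with 1346, so its rank and its order against Vgll4 depend on the counting.

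Upstream of LATS, the kinases and scaffolds of the pathway moved in both directions. Of 30 tested genes in a list of 33, 9 were higher and 10 lower, with a median log2 fold change of -0.03, against 21.4% higher and 21.3% lower over all ORFs tested. Ajuba, a LIM protein that inhibits LATS, rose to 41.4 ± 3.04 CPM in PE, against 23.8 ± 0.127 CPM in control (SD, n = 2 each). Wwc2, a KIBRA paralog that activates LATS, rose 1.53-fold. Strn3, a striatin of the phosphatase complex that opposes the MST kinases, rose by 0.30 and Taok1, a kinase upstream of MST, by 0.28 on the log2 scale.

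The decreases with the smallest p-values were in 3 atypical cadherins and Strip2. Fat4 fell to 59.1 ± 0.770 CPM in PE, against 108.3 ± 7.11 CPM in control, and its ligand Dchs1 to 73.2 ± 6.65 CPM in PE, against 120.5 ± 10.5 CPM in control. Fat1 fell to 901.4 ± 6.85 CPM in PE, against 1152 ± 11.6 CPM in control (SD, n = 2 each for these genes), and this call was lost when the length trend was removed (log2 fold change -0.0090, adjusted p = 0.75). Strip2, another part of the striatin complex, fell 2.10-fold. Of the MST kinases themselves, Stk4 rose 1.31-fold (edgeR quasi-likelihood adjusted p = 1.6e-04). Stk3, at 1.11-fold, was just under the threshold (adjusted p = 0.049) and lost its call under 7 of 10 alternatives. Nf2, the merlin scaffold, and Sav1, the MST partner, did not pass the test. Stk4, Stk3, Nf2 and Sav1 are named for their place in the cascade and were chosen after their values were seen.

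The list of TEAD, VGLL and angiomotin paralogs and cofactors had 13 tested genes, 7 higher and 1 lower, with a median log2 fold change of 0.16, against 21.4% higher and 21.3% lower over all ORFs. Of the 7 genes that rose, 6 were of the Ywha family, phosphoserine-binding adaptors that hold phosphorylated YAP1 in the cytoplasm. These were all the Ywha genes in the list, and they rose by 0.13 to 0.49 on the log2 scale, a subset picked out after the values were seen. Ywhab, the lowest of them at 0.13, lost its call under 2 of 10 alternatives. With the length trend removed, the genes of this list called higher numbered 5 in place of 7. Ywhag rose by 0.42, Ywhah by 0.31 and Ywhae by 0.29. Ywhaz had 735.1 and 756.9 CPM in PE and 517.0 and 543.0 CPM in control. Ywhaq had 0.316 counts per P-site and rests on a part of its P-sites. The remaining increase was Wbp2, a WW-domain binding cofactor, at 1.09-fold, which lost its call under 4 of 10 alternatives.

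**Figure D3:**
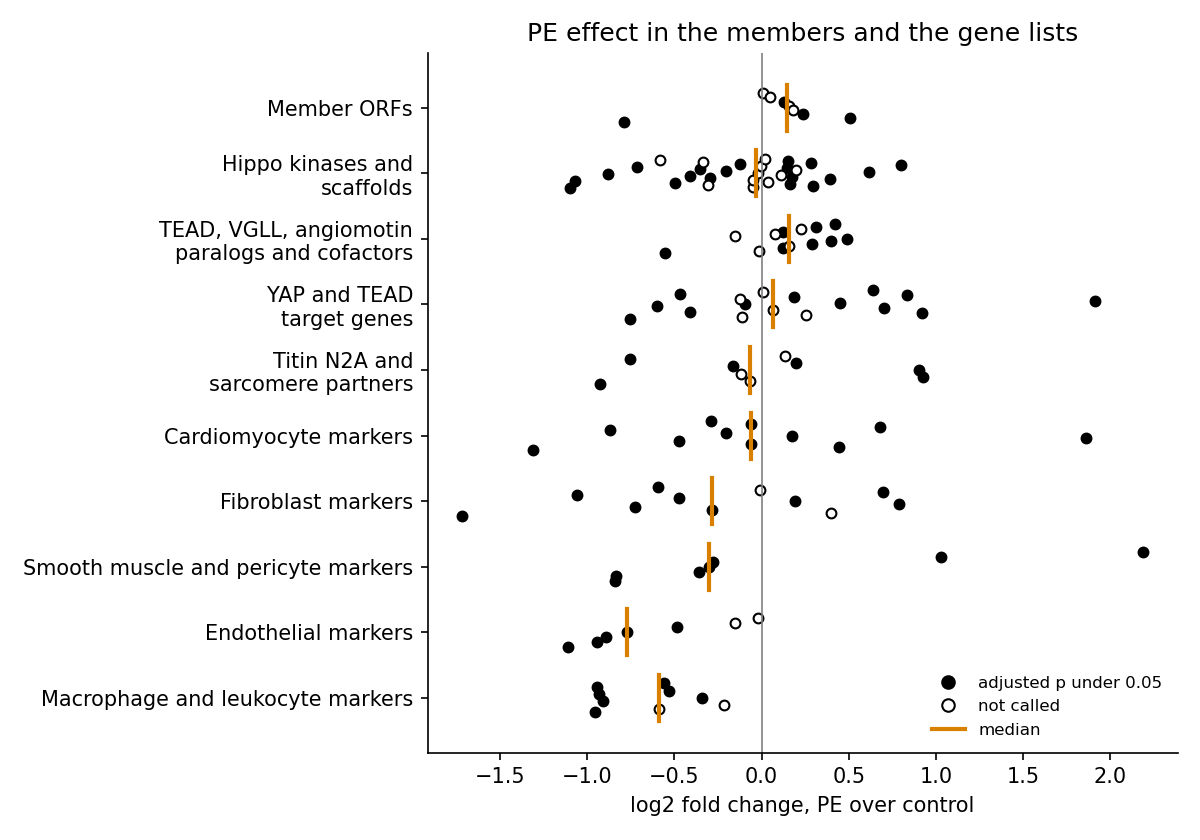
Log2 fold change, PE over control, of each tested member and of each tested gene of the pathway and marker lists (1 point per gene), filled where the adjusted p was under 0.05, with the list median in orange. The YAP and TEAD targets spread from -0.76 to 1.91, and the endothelial and macrophage markers lie below 0.

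Target genes of YAP and TEAD outside the members were split. Of 17 tested genes, 7 were higher and 5 lower, with a median log2 fold change of 0.06, against 21.4% higher and 21.3% lower over all ORFs. The matricellular genes Ccn1 and Ccn2, both classical YAP targets, rose 1.89-fold and 1.56-fold. Ccn1 (listed as Cyr61) had 625.1 and 640.5 CPM in PE and 333.5 and 335.8 CPM in control. Ccn2 (listed as Ctgf) had 1084 and 1092 CPM in PE and 695.1 and 701.0 CPM in control. With 0.515 counts per P-site, Ccn2 rests on a part of its P-sites.

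The change of greatest size on that list was in Nt5e, the ecto-5′-nucleotidase that makes adenosine outside cells, at 3.76-fold. It had 214.1 and 215.9 CPM in PE and 54.4 and 59.6 CPM in control. Tgfb2, a transforming growth factor, rose 1.78-fold. Igfbp3, which binds insulin-like growth factors, fell 1.52-fold to 350.1 ± 2.17 CPM in PE, against 530.8 ± 16.4 CPM in control (SD, n = 2 each). F3, the coagulation tissue factor, fell 1.69-fold, Ccdc80, a matrix protein, 1.38-fold, and Crim1, a membrane protein that binds bone morphogenetic proteins, 1.07-fold. The call of Crim1 was lost under 4 of 10 alternatives, with a log2 fold change of 0.0042 after removal of the length trend.

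Cell-type markers moved beside these target genes, and the counts of each list stand against 21.4% higher and 21.3% lower over all ORFs. Of 11 tested fibroblast markers, 6 were lower and 3 higher, with Col3a1 at -1.72 and Fn1 at 0.79 on the log2 scale. Their summed level was lower in PE, which rests on Postn and Col3a1, as above. Of 7 smooth muscle and pericyte markers, 5 were lower and 2 higher, with Tagln at -0.83 and Cnn1 at 2.19. The sum of these markers was 2636 and 2670 CPM in PE and 2510 and 2549 CPM in control. Without Cspg4, an omission chosen after seeing the data, it was 1832 and 1845 CPM in PE and 2113 and 2147 CPM in control. Cnn1 had 253.1 and 252.7 CPM in PE and 57.8 and 53.4 CPM in control, also a larger rise than that of the sum. The higher sum in PE therefore needs both Cspg4 and Cnn1. Endothelial markers were lower in 5 of 7 and higher in 0, summing to 141.4 and 146.6 CPM in PE and 252.0 and 241.2 CPM in control. Macrophage and leukocyte markers were lower in 7 of 9 and higher in 0. They summed to 372.6 and 357.7 CPM in PE and 602.9 and 576.4 CPM in control. Cd163 had 0 counts in all libraries, although it had 41 P-sites. The part of these cell-type markers in the changes of the members and targets was not tested.

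Sarcomere partners of the Ankrd1 family also went both ways. Of 9 tested genes of 14, 3 were higher and 3 lower, with a median log2 fold change of -0.07, against 21.4% higher and 21.3% lower over all ORFs; Ttn had no annotated row and was not analysed here. Desmin (Des), the intermediate filament that links Z-discs, rose to 4126 ± 56.2 CPM in PE, against 2172 ± 6.77 CPM in control (SD, n = 2 each). Csrp3, the muscle LIM protein, rose 1.87-fold with 0.219 counts per P-site, and Casq2, the calsequestrin that binds ANKRD1, rose 1.14-fold.

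Trim63 and Ldb3 were among the decreases. Trim63, the titin-binding ubiquitin ligase MuRF1, fell to 90.0 ± 7.06 CPM in PE, against 170.9 ± 0.554 CPM in control (SD, n = 2 each). Ldb3, a Z-disc protein, fell 1.12-fold with 0.606 counts per P-site. The titin and actin partner Mypn, which binds ANKRD1, averaged 43.1 ± 0.917 CPM in PE and 46.6 ± 3.18 CPM in control and did not pass.

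**Figure D4:**
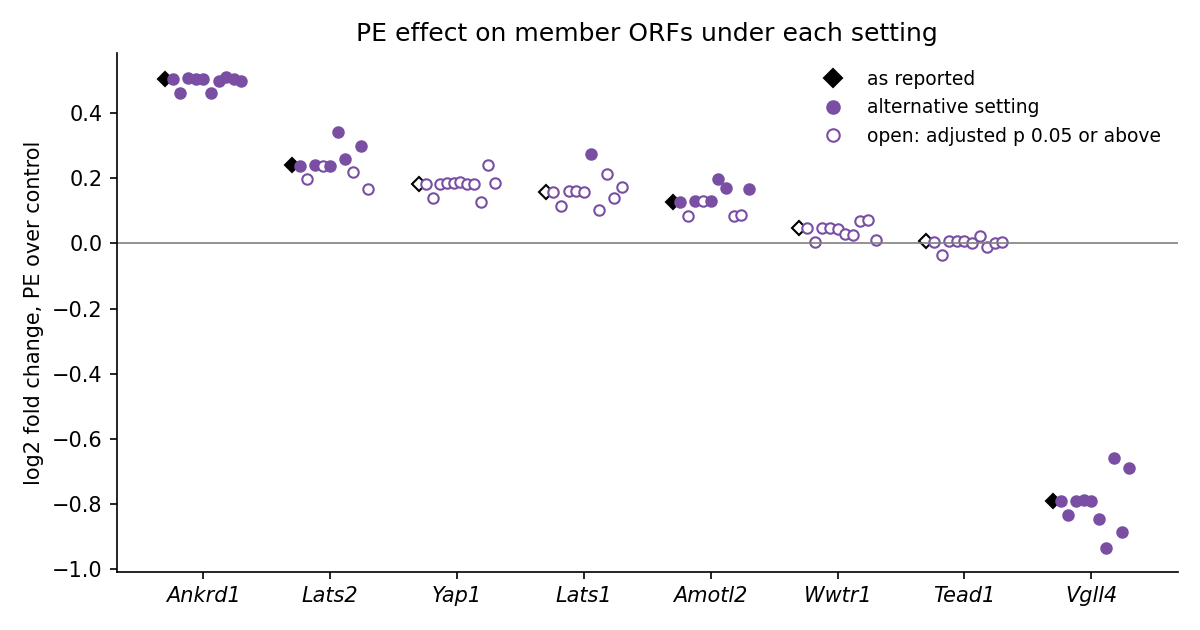
Log2 fold change of each tested member as reported (black diamond) and under each alternative setting (purple), filled where the adjusted p was under 0.05. Ankrd1 stays between 0.46 and 0.51 and Vgll4 between -0.94 and -0.66, filled throughout, while Amotl2 and Lats2 are filled under some settings and open under others.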

How the data were processed

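Groups and replicate numbers came from the sample titles, because the protocol text of every library mentions PE. Cycloheximide was present at the wash, per the labels' protocols, and lysates were digested with RNase I, and short protected fragments were sequenced after removal of ribosomal RNA. The genome Rnor_6.0 and the tools STAR 2.4.2a, Bowtie 1.1.2 and cutadapt 2.0 are named, per the submitters' processing notes. The program that called ORFs and the one that counted reads are not stated there. The authors deposited raw footprint counts for 18847 ORFs per library. Their annotation gives P-site counts per reading frame, deposited without a split by library (64444083 in all, against 49929542 footprint counts), and, per the file headers, DESeq2 log2 fold changes and p-values of the authors. Coordinates are as deposited.

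After filterByExpr and TMM scaling (factors 0.982 to 1.02), edgeR 4.0.16 in R 4.3.3 compared PE with control over 4 libraries by its robust quasi-likelihood test, with no replicate term. SE is the size of the log2 fold change over the root of F. Libraries varied little (common biological coefficient of variation 2.18%), so small changes could pass. DESeq2 1.42.0, other scalings, no filter, a replicate block, removal of the length trend by a loess offset, and each library left out were tried. Members and lists were chosen with earlier results of these data known. The text names all members, other ORFs of their genes, the called genes of each pathway list with the 4 smallest p per direction, and the 5 patterns nearest Ankrd1; paralogs and marker genes are examples chosen after their values were seen, and 1 called gene of the sarcomere list is not reported here. Lists took 1 annotated ORF per gene and are described by counts and medians only. Low counts limit the precision of Ankrd23 most, then of the second Yap1 ORF, the upstream ORFs, Vgll4, Lats1 and Lats2. The second Yap1 ORF had 2959 P-sites, so its low count depends on the counting.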

Additional observations from a re-analysis of the deposited data

How the results depend on the processing

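Ankrd1 and Vgll4 kept their direction and their call under all 10 alternatives run for each, with log2 fold changes of 0.46 to 0.51 and -0.94 to -0.66. Wwtr1, Tead1 and Yap1 stayed without a call, at 0.00 to 0.07, -0.04 to 0.02 and 0.13 to 0.24. Amotl2 lost its call with library totals alone (0.086) and DESeq2 (0.13), as did Lats2 (0.20 and 0.24), and Lats1 gained one after removal of the length trend (0.27). With 1 library left out at a time, Amotl2 ranged from 0.085 to 0.17 and Lats2 from 0.17 to 0.30. The members called higher numbered 1 with library totals alone and 1 with DESeq2, and 1 to 3 with a library left out. DESeq2 called 1724 ORFs higher and 1722 lower, against 2696 and 2690 in edgeR's quasi-likelihood test. The cause of these differences was not tested. Same-numbered libraries did not deviate together (correlation 0.016 over ORFs), and the fit with a replicate block changed no call of a member and gave 2721 ORFs higher and 2714 lower. The share of Lats1 in both kinases differed by -1.32 percentage points, PE minus control, and by 1.37 and -4.02 in the libraries numbered 1 and 2. Among all pathway genes 26 were higher and 18 lower, against 21.4% higher and 21.3% lower over all ORFs tested. Ptpn14, a lower gene that stands in both the kinase and the target list, was counted once here. With at least 0.5 counts per P-site, chosen after seeing the data, the counts were 24 and 18. They were 21 and 13 with DESeq2, and 23 and 13 with the length trend removed. With DESeq2 the kinases and scaffolds called higher numbered 5 in place of 9. The targets called lower numbered 3 in place of 5 with DESeq2 and with the length trend removed. Counts of 8 to 39 on the upstream ORFs and 0 to 9 on Ankrd23 limit what could be detected there.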
